A study of Mus musculus with 12 samples.

Results

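The measurements below are the mRNA levels of 10 genes that carry the BMP and FGF signals of the hair cycle, Bmp2, Bmp4, Bmp6, Nog, Bambi, Fgf5, Fgf7, Fgf10, Fgf18 and Fgf22, in the skin of 12 mice. They were taken by symbol from a table of 55453 genes, each symbol matched 1 row, and all 10 passed the filter on low counts. The mice formed 4 groups of 3 mice on a C57/BL6 background. WT PBS and WT BLM were wild-type mice given PBS, the vehicle, or bleomycin (BLM), a drug that scars the skin when injected under it, and KO PBS and KO BLM were Thy-1 knockouts given the same. Thy-1 is a surface glycoprotein of fibroblasts, and the knockout is a whole-body deletion. In the study's methods bleomycin was given at 10 mg per kg per day for up to 14 days, and the skin for sequencing was taken at day 21, while the series text speaks of 21 days of treatment. The methods call the knockouts females of 8 to 12 weeks and the controls littermates. The stage of the hair cycle at harvest was not recorded in the labels.

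The hair follicle passes through growth (anagen), regression (catagen) and rest (telogen). BMPs are secreted ligands that signal through receptor kinases and Smad proteins, and they keep the stem cells of the resting follicle quiet, while noggin binds BMPs outside the cell and favours entry into growth. FGFs signal through tyrosine kinase receptors: FGF7, FGF10 and FGF22 act on epithelial cells, FGF5 is the signal that ends hair growth, as long-haired Fgf5 mutants show, and FGF18 is a signal of the resting follicle.

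The 10 genes are protein-coding and lie on 7 chromosomes, with Bmp2 and Fgf7 on chromosome 2, Bmp6 and Fgf10 on 13, and Nog and Fgf18 on 11 (GRCm38). Promoter sequence from RefSeq (GRCm38.p6), taken as the 250 bases before the start that RefSeq gives each gene, was at hand for 7 of the 10. In the GENCODE annotation the window of Fgf10 lies inside the span of the gene, between exons, that of Bmp6 lies inside its first exon, and that of Fgf22 runs into its first exon. Bmp2, Nog and Bambi were without an entry that was used. The letters GGGCGG, the GC box bound by Sp1 and its relatives, were searched on both strands and stood in 6 of the 7 windows, against 32.7% of 32851 windows of all genes. Fgf22 had 3 such matches, Fgf7 had 0, and the other 5 genes had 1 each. The letters TATAAA (12.4% of all windows), GGCGCC (9.59%), TGANTCA (6.75%) and CTTTGA (13.8%) were searched in the same way and had 0 matches in the 7 windows. The number of CpG pairs ran from 6 in Fgf7 to 37 in Fgf18, against a median of 6 over all windows. Fgf5 and Fgf18 are not shown: each had 1 GC box, and neither passed the test in bleomycin-treated wild-type skin. Shown here are Bmp4, Fgf10 and Fgf22, which fell in bleomycin-treated wild-type skin, and Fgf7, which did not pass the test there and had no GC box. Each runs 5′ to 3′ on the strand of the gene, capitals mark the GC box or its reverse complement, and Fgf22 stops short of the gene's first annotated exon.
Bmp4 (chr14:46390670-46390919, minus strand): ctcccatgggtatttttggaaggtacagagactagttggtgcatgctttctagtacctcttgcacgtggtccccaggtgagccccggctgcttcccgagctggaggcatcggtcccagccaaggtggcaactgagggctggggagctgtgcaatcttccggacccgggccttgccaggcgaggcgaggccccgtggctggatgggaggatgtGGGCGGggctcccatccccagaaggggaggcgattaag
Fgf10 (chr13:118714449-118714698, plus strand): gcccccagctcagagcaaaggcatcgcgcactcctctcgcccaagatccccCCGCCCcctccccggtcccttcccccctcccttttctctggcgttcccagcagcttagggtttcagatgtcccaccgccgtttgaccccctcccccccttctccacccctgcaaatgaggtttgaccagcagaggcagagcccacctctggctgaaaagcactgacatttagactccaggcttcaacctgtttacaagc
Fgf22 (chr10:79754859-79755075, plus strand): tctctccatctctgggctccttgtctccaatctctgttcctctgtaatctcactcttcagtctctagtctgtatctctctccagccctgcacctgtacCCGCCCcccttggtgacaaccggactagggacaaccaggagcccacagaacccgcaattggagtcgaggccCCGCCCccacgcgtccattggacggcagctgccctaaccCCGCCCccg
Fgf7 (chr2:126034408-126034657, plus strand): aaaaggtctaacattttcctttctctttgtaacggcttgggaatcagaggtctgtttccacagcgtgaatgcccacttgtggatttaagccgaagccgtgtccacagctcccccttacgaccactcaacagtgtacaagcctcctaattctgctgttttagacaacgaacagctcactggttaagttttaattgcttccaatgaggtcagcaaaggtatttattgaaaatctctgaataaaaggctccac

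The libraries held 26473700 to 38890450 counts. Thy1, the targeted gene, had 104, 115 and 150 CPM (counts scaled to a common library size) in WT PBS, 231, 349 and 416 in WT BLM, 45.6, 96.9 and 77.4 in KO PBS and 84.7, 128 and 96.4 in KO BLM. Every knockout was thus below every wild type of the same treatment (adjusted p = 0.225 with PBS and 0.11 with bleomycin), but the gene was still counted in them, and a count per gene does not show which exons the reads cover. A list of 21 measured markers of hair in growth, keratins of the shaft and proteins of the sheath around it, divided the mice within groups. Its mean log2 CPM was 9.88, 10.51 and 10.05 in WT PBS and -0.46, 3.73 and -0.53 in WT BLM. It was 10.5 in KO PBS mouse 136 but -0.98 and 2.07 in mice 137 and 139, and 9.4 in KO BLM mouse 141 against 5.33 and 6.41 in mice 143 and 144. Mice 136 and 141 also stood apart from their groups over all genes, so results on the knockout are given with and without them. The members are expressed in several cell types of the skin, and in bulk tissue fewer cells of a type and less RNA per cell cannot be told apart.

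**Figure D1:**
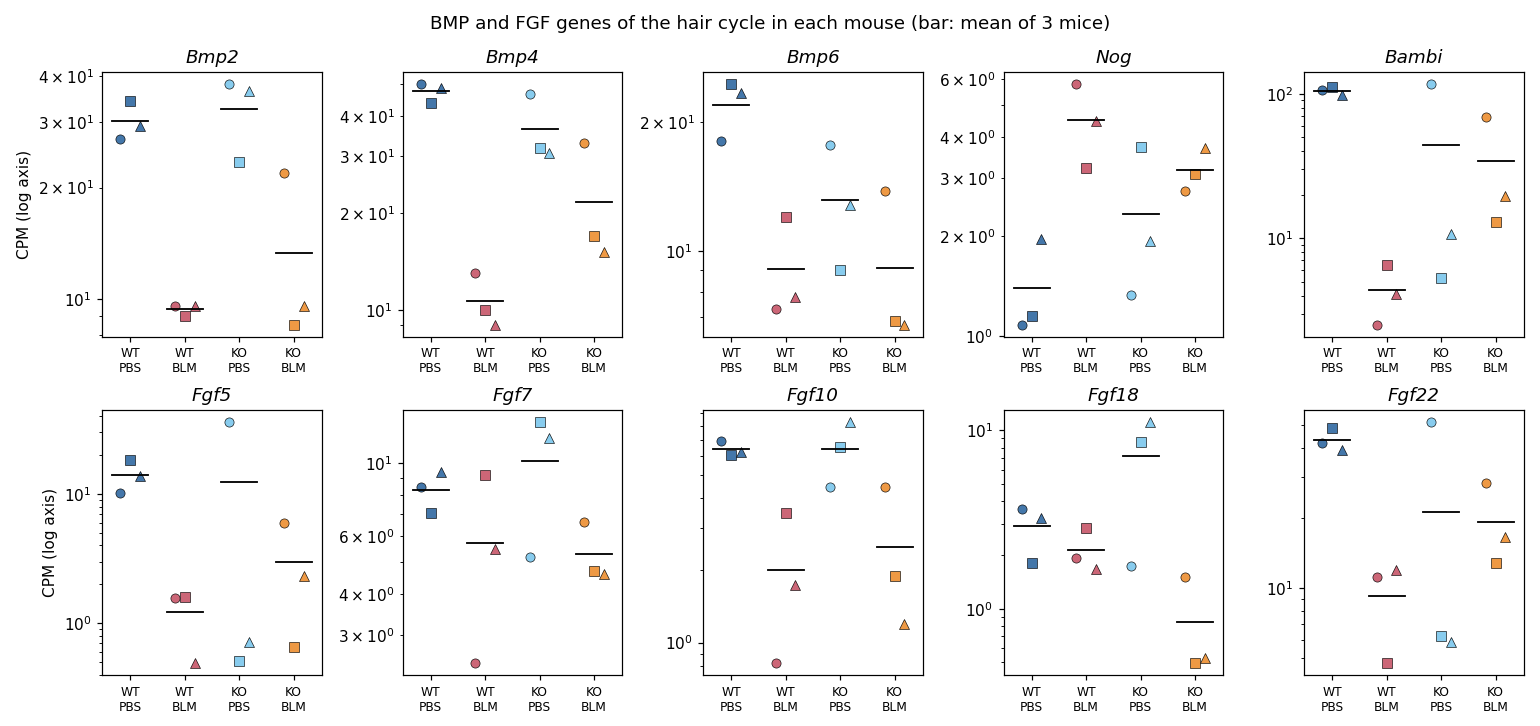
CPM of each member (log axis) in each of the 12 mice, by group; circles, squares and triangles are the 3 mice of a group in the order of their numbers, and bars are means. WT BLM lies wholly below WT PBS for 7 genes and above it for Nog, while in KO PBS mouse 136 (circle) had 117 CPM of Bambi and its 2 group mates 5.26 and 10.7.

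In WT PBS skin, levels per kilobase of exon put Bmp4 first at 21.2 ± 1.54 CPM per kb (SD, n = 3), with Bambi at 20.8 ± 1.23 and Fgf22 at 19.2 ± 2.12. These 3 genes overlapped each other in range and stood clear of Bmp2 at 8.49 ± 1.05 CPM per kb. Bmp6 at 5.62 ± 0.885 and Fgf5 at 5.6 ± 1.63 CPM per kb did not differ beyond their spread, nor did Fgf7 at 2.55 ± 0.366 and Fgf18 at 2.43 ± 0.803. Fgf10 at 1.39 ± 0.103 and Nog at 0.825 ± 0.288 CPM per kb were the lowest. In WT BLM the order was Bmp4, Fgf22, Nog, Bmp2, Bmp6, Fgf18, Fgf7, Bambi, Fgf5 and Fgf10, and the ranges of all neighbours overlapped. Nog moved from the last place to the third, at 2.65 ± 0.757 CPM per kb, and Bambi from the second to the eighth, at 0.862 ± 0.402. Bmp4 was also first in KO PBS, at 16.2 ± 4.03, and in KO BLM, at 9.64 ± 4.39 CPM per kb, with overlap between all neighbours there too.

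To ask what bleomycin did to these signals in wild-type skin, WT BLM was compared with WT PBS. The 3 BMP ligands, the pseudoreceptor Bambi and the epithelial signals Fgf10 and Fgf22 fell, and the BMP antagonist Nog rose. In all, 7 of the 10 members passed an adjusted p of 0.05 in edgeR's quasi-likelihood test, 6 lower and 1 higher. Over the 18311 genes tested, 33.7% passed, 13.9% lower and 19.8% higher. The groups did not overlap for 8 members, against 57% of all genes. The median log2 fold change of the members was -1.67, and that of all genes was 0.02. DESeq2 called 6 members, against 34.7% of all genes, and those were Bmp2, Bmp4, Bmp6, Nog, Fgf5 and Fgf10. It gave Bambi and Fgf22 no adjusted p, here and in every other comparison below. Fits that left out 1 mouse called 3 to 8 members, with the fewest without WT BLM mouse 145 or 147 or WT PBS mouse 160 (3 each) and 4 without WT PBS mouse 159 or 161. The share of all genes called was lower in those fits too. It was 21.3% without 145, 17.5% without 147, 13.9% without 160 or 159 and 17.9% without 161.

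Bmp4, a ligand of the dermal papilla and dermis in the follicle, had 50.2, 43.7 and 48.9 CPM in WT PBS and 13, 10 and 8.99 CPM in WT BLM. Every treated mouse was below every control, and the fall was 4.46-fold (log2 fold change -2.16 ± 0.3 (SE), adjusted p = 0.00366). Bmp2, a ligand that rises in the skin between growth phases, had 27, 34.3 and 29.3 CPM against 9.59, 9.03 and 9.58 CPM. The treated mice were within 1 CPM of each other, and the level was 3.21-fold lower (log2 fold change -1.68 ± 0.33, adjusted p = 0.00779). Bmp6, a ligand made in the stem cell niche of the resting follicle, had 18, 24.5 and 23.3 CPM against 7.32, 12 and 7.81 CPM. Mouse 146 was the highest of the treated mice but still below the controls, and the fall was 2.42-fold (log2 fold change -1.28 ± 0.34, adjusted p = 0.0206). Bmp2 and Bmp4 passed in each of the 12 fits that left out 1 mouse. Bmp6 passed in 8, and its adjusted p was 0.063 without WT BLM mouse 145, 0.0665 without 147, 0.0558 without WT PBS mouse 160 and 0.0521 without 161.

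Nog, which encodes noggin, was the member that went the other way. It had 1.08, 1.15 and 1.96 CPM in WT PBS and 5.79, 3.23 and 4.46 CPM in WT BLM, a rise of 3.19-fold with no overlap (log2 fold change 1.67 ± 0.41, adjusted p = 0.015). The adjusted p was 0.0611 without WT PBS mouse 159 and 0.0625 without mouse 160. Bambi, a membrane protein that resembles a BMP and TGF-beta receptor but lacks its kinase, had 106, 111 and 98.8 CPM in WT PBS and 2.51, 6.55 and 4.07 CPM in WT BLM. The groups lay far apart, with a fall of 24-fold, the largest of the 10 (log2 fold change -4.58 ± 1.16, adjusted p = 0.0174). All 4 groups share 1 fit, and the adjusted p was 0.0572 without WT BLM mouse 145, 0.0578 without 147 and 0.000762 without KO PBS mouse 136.

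Among the FGFs, Fgf22, which is expressed in the inner root sheath, had 41.9, 48.5 and 39.2 CPM in WT PBS and 11.1, 4.76 and 11.9 CPM in WT BLM. The groups did not overlap and the level was 4.66-fold lower (log2 fold change -2.22 ± 0.77, adjusted p = 0.0481). Fgf10, made by the dermal papilla, had 6.93, 6.05 and 6.19 CPM against 0.822, 3.46 and 1.74 CPM. Its treated mice differed among themselves more than the controls did, and all were lower, by 3.17-fold on the fitted scale (log2 fold change -1.66 ± 0.55, adjusted p = 0.0405). Both calls were near the threshold: Fgf10 passed in 6 of the 12 fits without 1 mouse (adjusted p 0.0245 to 0.11) and Fgf22 in 4 (0.0011 to 0.134). Fgf10 was lost without any of KO BLM mouse 143, WT BLM mice 145 and 147 and WT PBS mice 159, 160 and 161. Fgf22 was lost without any of KO BLM mice 143 and 144 and each of the 6 wild-type mice. With a minimum on counts removed, Fgf22 had an adjusted p of 0.114.

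The other 3 FGFs did not pass. Fgf5 had 10.1, 18.3 and 13.7 CPM in WT PBS and 1.57, 1.6 and 0.492 CPM in WT BLM. The groups did not overlap (log2 fold change -3.52 ± 1.45, adjusted p = 0.08), and without KO PBS mouse 136, whose Fgf5 was 36 CPM, the adjusted p was 0.00323. Fgf7, a mesenchymal growth factor for keratinocytes, had 8.45, 7.04 and 9.4 CPM against 2.47, 9.19 and 5.48 CPM. Its groups overlapped through WT BLM mouse 146, and the log2 fold change of -0.54 had a 95% interval from -1.53 to 0.46. Fgf18 had 3.62, 1.81 and 3.24 CPM against 1.92, 2.84 and 1.67 CPM, with overlap and a log2 fold change of -0.43 (95% interval -1.82 to 0.96).

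Markers of other cells moved with the treatment. In wild-type skin 5 of the 21 genes of the growing hair list passed the test, all lower, and for all 21 every treated mouse was below every control, with summed levels of 50100 to 72600 CPM in WT PBS and 38 to 848 CPM in WT BLM. Of 8 dermal papilla genes, 5 fell and 1 rose. Of 8 skeletal muscle genes 7 rose (summed 4760 to 5380 CPM against 16200 to 33500 CPM), as did 4 of 6 dermal fibroblast genes (5820 to 7940 against 10700 to 34400 CPM), 4 of 5 macrophage genes (142 to 336 against 508 to 878 CPM), 3 of 4 endothelial genes and 2 of 6 epidermal genes, and 0 of 6 adipocyte genes passed. With the mean of the hair list as a covariate in the fit, 0 members passed in WT BLM against WT PBS, and 12 of all genes did. In that fit the log2 fold changes were -0.99 for Bmp2, -1.55 for Bmp4, -0.29 for Bmp6, 0.54 for Nog, -0.99 for Bambi, -1.28 for Fgf10 and 0.15 for Fgf22. Each was smaller in size than without the covariate, and Fgf22 turned sign. The list and the treatment moved together in the wild type, and their parts cannot be told apart in these 6 mice.

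**Figure D2:**
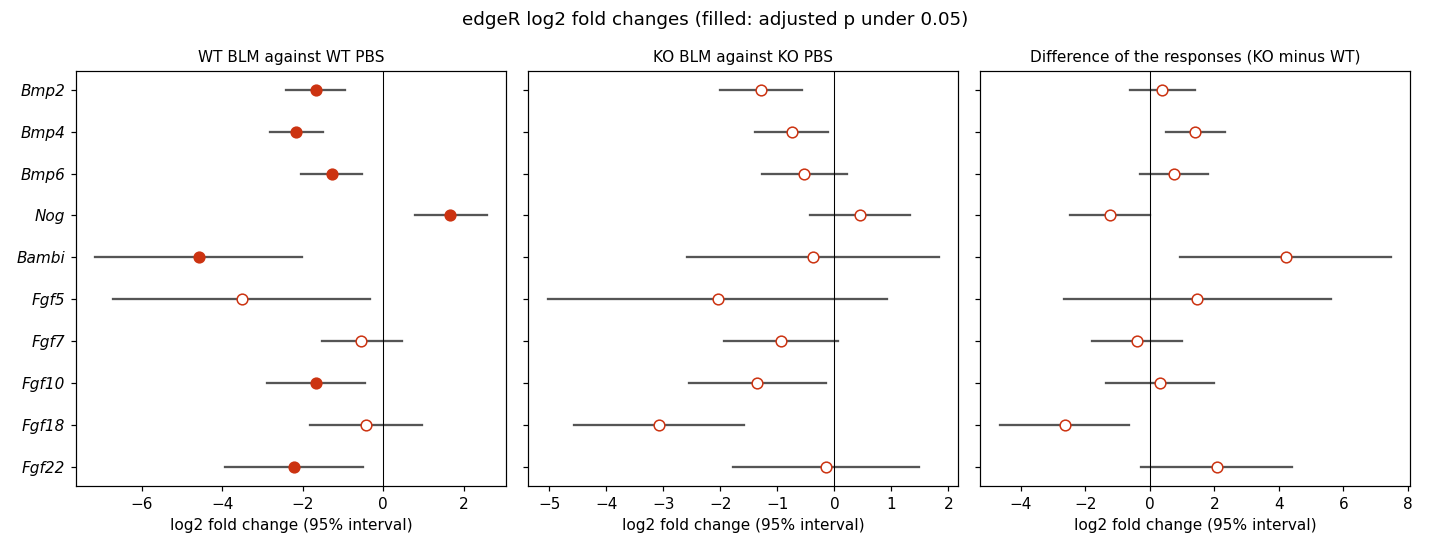
Log2 fold change of each member with its 95% interval, for WT BLM against WT PBS, KO BLM against KO PBS and the difference of the responses (KO minus WT); each panel has its own scale, and filled points passed an adjusted p of 0.05. In the wild type 7 points are filled, and in the other panels 0.

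In the knockout, KO BLM was compared with KO PBS to see whether the members responded in the same way. No member passed in edgeR (0 of 10, against 0.3% of all genes), 4 had an unadjusted p under 0.05 (20.1% of all genes), and DESeq2 called Bmp2 and Fgf18 (5.95% of all genes). The groups did not overlap for 3 members, Bmp2, Fgf10 and Fgf18, all lower in KO BLM, against 19.3% of all genes. Bmp2 had 38.1, 23.5 and 36.4 CPM in KO PBS and 21.9, 8.53 and 9.61 CPM in KO BLM. Mouse 141 lay just under the lowest control, and the log2 fold change was -1.29 ± 0.33 (adjusted p = 0.116). Without mouse 141 it was -1.85 (adjusted p = 0.00827), and without both 136 and 141 it was -1.72 (adjusted p = 0.00471).

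Bmp4 had 46.8, 31.7 and 30.7 CPM in KO PBS and 33, 16.9 and 15.1 CPM in KO BLM. In each group the mouse high in the hair list was also the highest in Bmp4, and the groups overlapped through mouse 141 (log2 fold change -0.75 ± 0.29, adjusted p = 0.194; -0.96 and 0.0103 without both). Bmp6 had 17.6, 9 and 12.8 CPM against 13.8, 6.85 and 6.72 CPM, and Nog had 1.33, 3.74 and 1.94 CPM against 2.75, 3.1 and 3.71 CPM. Both overlapped, with log2 fold changes of -0.53 (95% interval -1.27 to 0.22) and 0.44 (-0.43 to 1.32), and without both mice with -0.69 (adjusted p = 0.1) and 0.26 (0.671).

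Bambi, Fgf5 and Fgf22 split the knockout mice more than the treatment did. Bambi had 117, 5.26 and 10.7 CPM in KO PBS mice 136, 137 and 139, and 69.4, 12.9 and 19.7 CPM in KO BLM mice 141, 143 and 144. Fgf5 had 36, 0.514 and 0.715 CPM, and 6, 0.651 and 2.3 CPM. Fgf22 had 51.6, 6.2 and 5.84 CPM, and 28.2, 12.8 and 16.5 CPM. For each of the 3 genes the highest mouse of its group was 136 or 141, the mouse highest in the hair list. The sign of the response depended on the mice in the fit. With all mice the log2 fold changes of Bambi, Fgf5 and Fgf22 were -0.38, -2.05 and -0.14. Without mouse 136 alone they were 2.09, 2.28 and 1.67 (adjusted p = 0.0733, 0.0904 and 0.0309). Without mouse 141 alone none turned sign, and without mouse 143 Bambi was at 0.02 and Fgf22 at 0.08. Without both 136 and 141 the values of the 3 genes were 1.03, 1.24 and 1.28. There Fgf22 passed (adjusted p = 0.0369) and Bambi and Fgf5 did not (0.104 and 0.207).

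Fgf18 showed the reverse order in KO PBS, with 1.73 CPM in mouse 136 and 8.57 and 11.1 CPM in mice 137 and 139, the highest values of the 12 mice. KO BLM had 1.5, 0.496 and 0.53 CPM. The groups did not overlap, and the log2 fold change of -3.07 ± 0.68 (adjusted p = 0.0882) was -3.53 without mouse 136 (adjusted p = 0.00772), -3.81 without mouse 141 (0.0308) and -4.25 without both (0.00365). Fgf7 likewise had 5.19 CPM in mouse 136 against 13.3 and 11.9 CPM in mice 137 and 139, and 6.61, 4.71 and 4.59 CPM in KO BLM (log2 fold change -0.93 ± 0.45, adjusted p = 0.275; -1.44 and 0.0546 without both). Fgf10 had 4.45, 6.51 and 8.28 CPM in KO PBS and 4.44, 1.89 and 1.2 CPM in KO BLM. Mice 136 and 141 nearly met at the edge of their groups (log2 fold change -1.35 ± 0.54, adjusted p = 0.205; -2.25 and 0.022 without both). Without both mice 5 members passed in all, Bmp2, Bmp4, Fgf10 and Fgf18 lower and Fgf22 higher in KO BLM, as did 22.4% of all genes.

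**Figure D3:**
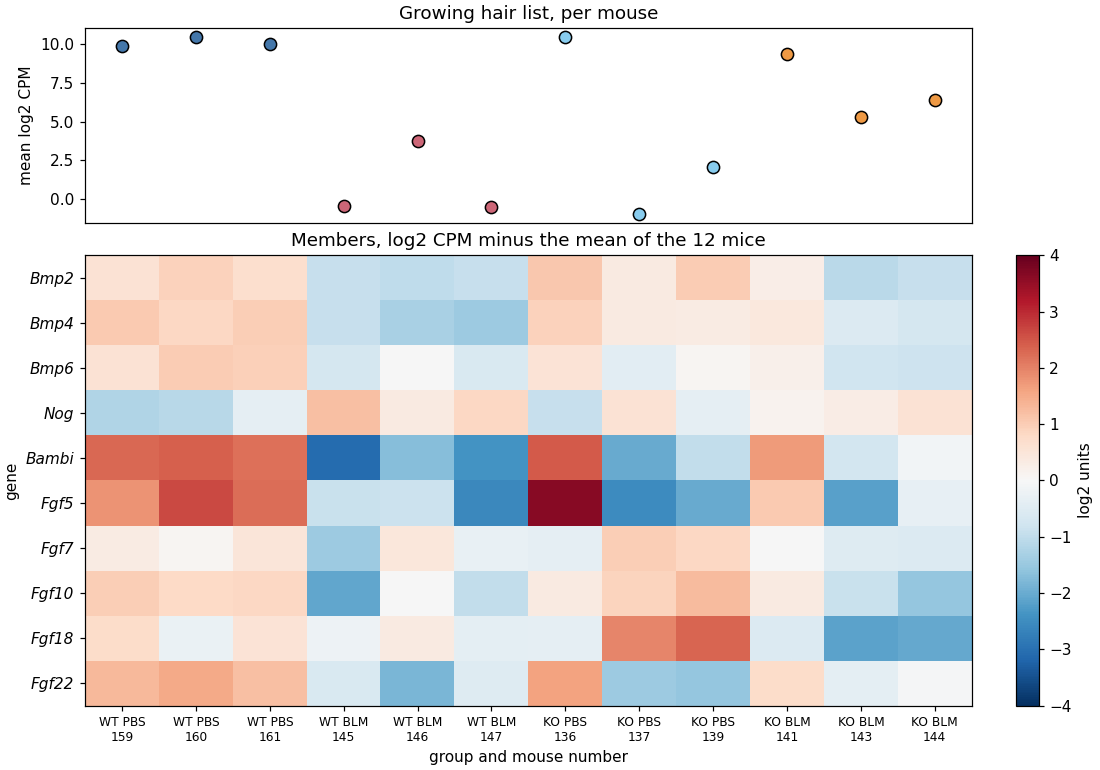
Mean log2 CPM of the growing hair list per mouse (upper panel, points coloured by group) above the members' log2 CPM minus their mean over the 12 mice (lower panel, red above and blue below that mean). Bambi, Fgf5 and Fgf22 are red in WT PBS and in mice 136 and 141, and Fgf18 is most red in KO PBS mice 137 and 139.

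To see whether the knockout alone moved the members, KO PBS was compared with WT PBS. No member passed in edgeR (0 of 10, against 0.0655% of all genes), 0 had an unadjusted p under 0.05 (20.3% of all genes), and DESeq2 called 0 members (3.69% of all genes). Bmp6 was the one member whose groups did not overlap (18.9% of all genes), with 18, 24.5 and 23.3 CPM in WT PBS above 17.6, 9 and 12.8 CPM in KO PBS (log2 fold change -0.74 ± 0.34, adjusted p = 0.248). The Bmp2 values overlapped, with a log2 fold change of 0.11 (95% interval -0.6 to 0.83), as did those of Fgf10 at 0.01 (-1.16 to 1.17). The count rested on mouse 136: without it 36.6% of all genes passed, and among them 5 members, Bmp6 (-1.01, adjusted p = 0.0486), Bambi (-3.72, 0.00602), Fgf5 (-4.5, 0.0049) and Fgf22 (-2.84, 0.00174) lower and Fgf18 (1.77, 0.0145) higher in KO PBS. Without both 136 and 141, 6 members and 41% of all genes passed. In that fit the 2 remaining KO PBS mice were the ones low in the hair list, and its part in these calls was not tested.

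Between the treated groups, KO BLM against WT BLM, no member passed in edgeR (0 of 10, against 0.0874% of all genes), 2 had an unadjusted p under 0.05 (16.5% of all genes), and DESeq2 called Bmp4 alone (2.99% of all genes). The groups did not overlap for 4 members, against 27.5% of all genes. Bmp4, Bambi and Fgf22 were higher in each KO BLM mouse than in any WT BLM mouse, and Fgf18 was lower. Their log2 fold changes were 1.02 ± 0.29 for Bmp4 (adjusted p = 0.226), 2.96 ± 1.08 for Bambi (0.264), 1.05 ± 0.75 for Fgf22 (0.469) and -1.34 ± 0.65 for Fgf18 (0.326). Without both mice 136 and 141, Bambi (1.89, adjusted p = 0.038) and Fgf18 (-2.05, 0.0358) passed, as did 4.51% of all genes. Summed levels of the hair list were 3670 to 38200 CPM in KO BLM and 38 to 848 CPM in WT BLM. With the hair list as a covariate, 0.12% of all genes passed in this comparison. Values of the members were not kept in that fit, so the part of the list in their differences was not tested.

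The difference of the responses, the knockout's change under bleomycin minus the wild type's, was tested as an interaction. No member passed, nor did any gene (0 of 10 members and 0% of all genes in edgeR, with 3 members and 5681 genes, or 31%, at an unadjusted p under 0.05), and DESeq2 called Bmp4 and Fgf18 (17.8% of all genes). Bmp4 fell by 2.16 on the log2 scale in the wild type and had a change of -0.75 in the knockout, a difference of 1.41 (95% interval 0.5 to 2.32, adjusted p = 0.0782). Bambi differed by 4.21 (0.95 to 7.47, adjusted p = 0.103), and Fgf18 by -2.64 (-4.65 to -0.64, adjusted p = 0.0991). For Bmp2 the difference was 0.39 (-0.62 to 1.41), and for Nog it was -1.23 (-2.47 to 0.01). Without mouse 136, 39.9% of all genes passed, and among them 6 members, Bmp4 (1.64), Bambi (6.68), Fgf5 (5.81) and Fgf22 (3.9) with a positive difference and Nog (-1.5) and Fgf18 (-3.1) with a negative one. Without both 136 and 141, 5 members and 38.7% of all genes passed.

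The other genes of the BMP pathway were taken from lists by role. Of 54 such genes 47 were tested, and in WT BLM against WT PBS 11 were higher and 16 lower, with a median log2 fold change of -0.13. Over all genes 19.8% were higher, near the share of these 47, and 13.9% lower. Of 9 direct targets 0 rose and 8 fell, with a median of -1.46. Msx2, a homeobox gene of the hair matrix, changed by -5.17 ± 1.16 (adjusted p = 0.012) and Msx1 by -3.7 ± 0.78 (0.00962). The feedback inhibitors Smad6 and Smad7 changed by -2.81 ± 0.67 (0.0144) and -1.83 ± 0.57 (0.0338). The Id genes, inhibitors of basic helix-loop-helix factors and outside the naming rule, fell too, with log2 fold changes of -0.83 for Id1, -0.5 for Id2, -1.43 for Id3 and -1.46 for Id4. Atoh8, the ninth target, was at -0.03 (adjusted p = 0.905). Msx2 and Msx1 are themselves genes of the follicle, and Msx2 had the highest correlation with Bambi over the 12 mice.

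Of 8 other BMP-family ligands, 3 fell and 1 rose. Bmp8a changed by -4.93 ± 1.26 (adjusted p = 0.0176), Gdf10 by -1.79 ± 0.61 (0.0444), Bmp7 by -1.23 ± 0.22 (0.00563) and Gdf6 by 2.64 ± 0.7 (0.0206). Of 13 other extracellular antagonists, 4 rose and 2 fell. Chrd, which encodes chordin, rose by 2.83 ± 0.49 (0.00549), while Bmper, a BMP-binding modulator, changed by -1.69 ± 0.38 (0.0112). Cer1 had at most 1 count in each WT BLM mouse against 8 to 14 in WT PBS, which is at least 3.52-fold lower against a floor of 3 counts per library. Of 11 receptors and co-receptors, 5 rose and 1 fell. The risers included Hjv (2.82 ± 0.49, adjusted p = 0.00554), a co-receptor of muscle and liver, Bmpr1b (1.99 ± 0.31, 0.00436), and the endothelial Acvrl1 (1.08 ± 0.26, 0.0148) and Eng (1.02 ± 0.28, 0.0233). The 1 that fell, named after its value was seen, was the type I receptor Bmpr1a (-0.85 ± 0.24, 0.0235). Of 8 genes of the Smad list 1 rose and 4 fell, among them the signal carriers Smad1 (-0.5 ± 0.17, 0.0449) and Smad5 (-0.57 ± 0.15, 0.0211). The other genes of that list that fell were Smad6 and Smad7, which are also counted among the direct targets.

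Of 39 other FGF pathway genes 32 were tested, with 7 higher and 5 lower and a median log2 fold change of -0.21, shares near the 19.8% and 13.9% of all genes. Of 7 other ligands 3 rose and 1 fell: Fgf6, known from muscle, by 2.82 ± 0.88 (adjusted p = 0.0338), Fgf9 by 1.59 ± 0.54 (0.0464) and Fgf1 by 0.88 ± 0.21 (0.014), against a change of -2.01 ± 0.63 (0.0346) in Fgf21. Of 8 receptors and co-receptors 3 rose and 0 fell. Fgfr4 changed by 2.34 ± 0.5 (0.00972), Fgfrl1, which lacks the kinase, by 1.76 ± 0.28 (0.00475) and Fgfr1 by 0.77 ± 0.22 (0.0277). Fgfr2, whose epithelial form binds FGF7, FGF10 and FGF22, was at -0.55 ± 0.2 (adjusted p = 0.0582), and is named for that role after its value was seen. Of 11 adaptors and feedback inhibitors 1 rose and 3 fell, with Dusp6, a phosphatase that ends ERK signals, at -0.94 ± 0.28 (0.0308), Spred2 at -0.84 ± 0.18 (0.0101), Frs2 at -0.52 ± 0.17 (0.0356) and Frs3 at 0.89 ± 0.31 (0.046). Of 6 target genes 1 passed, Etv4, at -1.99 ± 0.39 (0.00774).

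With all 12 mice, none of these BMP or FGF genes passed in the other comparisons (0 of 47 and 0 of 32 in edgeR in each). In KO BLM against KO PBS, 8 of the 47 BMP genes and 6 of the 32 FGF genes had an unadjusted p under 0.05, shares no higher than the 20.1% of all genes. The log2 fold changes there were -0.12 for Msx2, 0.89 for Msx1, 0.31 for Chrd, 0.19 for Fgfr4 and 0.99 for Etv4. Without both mice 136 and 141 they were 1.47 for Msx2 (adjusted p = 0.0161), 2.09 for Msx1 (0.0138), 0.11 for Chrd (0.836), 0.14 for Fgfr4 (0.85) and 1.2 for Etv4 (0.0422). In that fit 2 of the 47 BMP genes were higher and 9 lower, with 5 and 6 of the 32 FGF genes. Of all genes, 22.4% passed there in either direction. The interaction was 5.05 ± 1.46 for Msx2 (adjusted p = 0.0782; 6.65 and 5.66e-05 without both) and 2.98 ± 0.55 for Etv4 (adjusted p = 0.0699; 3.19 and 0.00135 without both). In that test, with all 12 mice, 22 of the 47 BMP genes and 16 of the 32 FGF genes had an unadjusted p under 0.05, as did 5681 of the 18311 genes. The fit without both mice was chosen after seeing the data and left 2 mice in each knockout group. Those left in KO PBS were low in the hair list and the WT PBS mice high. The part of that list in the values without both was not tested.

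**Figure D4:**
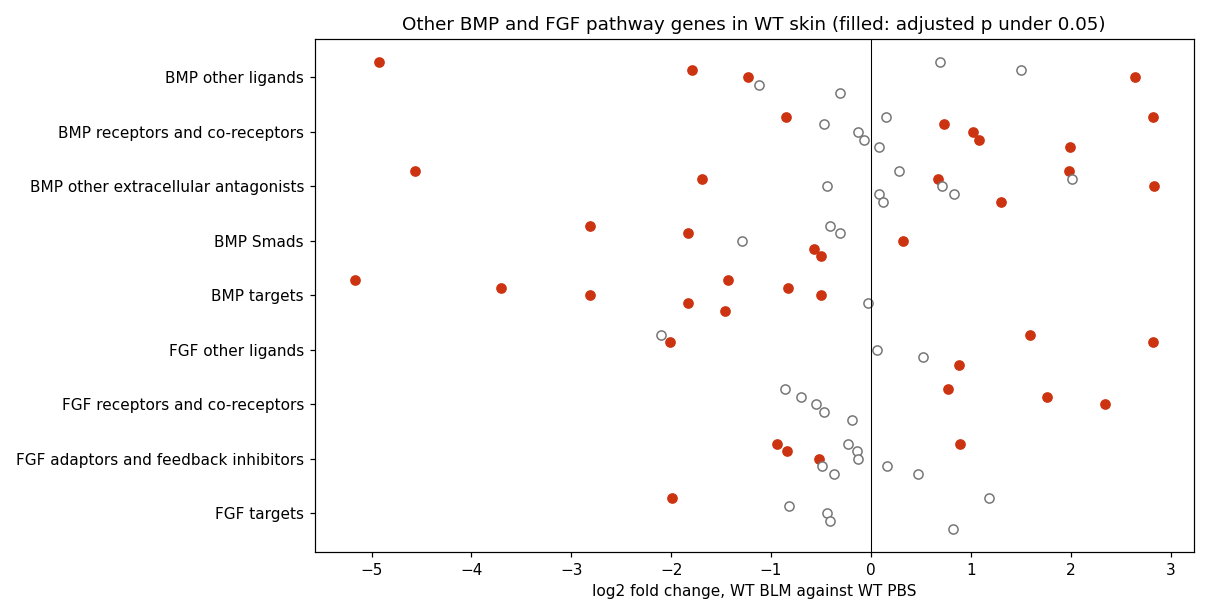
Log2 fold change of the other BMP and FGF pathway genes in WT BLM against WT PBS, 1 point per tested gene and 1 row per list (points are spread vertically for legibility); filled points passed an adjusted p of 0.05. Of the 9 BMP targets 8 are filled and all 8 lie below 0, while of the 11 BMP receptors and co-receptors 5 filled points lie above 0 and 1 below.

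The genes whose log2 CPM followed each member most closely over the 12 mice are given as a description. The 12 mice share groups, so these values of Pearson's r also hold the differences between groups. They hold the split of the knockout mice in the hair list as well. Bambi was closest to Msx2 (r = 0.992), Dlx4os (0.992) and Hoxc13 (0.991), homeobox loci of which Msx2 and Hoxc13 are known from the hair matrix. Nog was closest to the interferon-induced Oas1c (0.974), Oas1g (0.971) and Oas3 (0.965). Bmp4 was closest to Wnk4 (0.98), Epb41l4b (0.973) and Tfap2b (0.968), Bmp2 to Sh3rf1 (0.974), Cyp1b1 (0.974) and Adgra3 (0.964), and Bmp6 to Fnip2 (0.987), Man1a2 (0.975) and Sesn3 (0.975). Fgf22 was closest to Gtpbp1 (0.995), Ftsj3 (0.994) and Etf1 (0.99), and Fgf5 to Eprs (0.982), Morn4 (0.98) and Rbm18 (0.976). Fgf7 was closest to Spon2 (0.955), Cygb (0.928) and Vit (0.925), Fgf10 to Ntrk3 (0.971), Hmcn1 (0.967) and Smim1 (0.959), and Fgf18 to Adcy1 (0.971), Ralgps1 (0.961) and Arhgap44 (0.946). No gene was among the 3 closest of more than 1 member.

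Exons of 4 members share bases with a gene on the other strand, and whether the counting used strand is not given in the sources used here. Bmp6 shares 224 bases with Txndc5, which had 132 to 372 CPM, above Bmp6 in all 12 mice. Txndc5 had 274 to 304 CPM in WT PBS and 162 to 251 CPM in WT BLM, so every treated mouse was below every control. It was at a log2 fold change of -0.42 (adjusted p = 0.342) in WT BLM against WT PBS. Fgf22 shares 82 bases with Rnf126 (44 to 97.8 CPM), which was at -0.26 (adjusted p = 0.405). Bmp4 shares 89 bases with Gm15217, which was at 0 CPM throughout, and Fgf10 shares 123 bases with Gm16263, which had at most 0.326 CPM.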

How the data were processed

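Skin RNA of 12 mice was sequenced from TruSeq stranded libraries. The authors deposited 1 table of raw counts per gene with a column per mouse. The submitters' processing notes name GRCm38.p6 and MultiQC 1.7. The aligner, the counter and its use of strand are not given in the sources used here. Groups came from the sample titles, replicates are separate mice, and no batch is named.

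Genes were kept by edgeR's filterByExpr (minimum count 10), which left 18311 of 34689 genes with a count. Libraries were scaled by TMM (edgeR 4.0.16, R 4.3.3), and 1 quasi-likelihood fit over the 4 groups gave every comparison, with Benjamini-Hochberg adjustment over all genes tested and a threshold of 0.05. The study's methods used DESeq2, run here (1.42.0) as an alternative. The biological coefficient of variation was 34.9%. CPM are counts divided by the TMM-scaled library size, and levels between genes are per kb of merged GENCODE M21 exons. The fit was tested on simulated data.

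The members and lists were chosen with earlier results of these data known. Named from each pathway list were up to 4 genes past the threshold in WT BLM against WT PBS by size of change (1 such gene is not reported here), and for each member the 3 genes of highest Pearson's r of log2 CPM (prior count 2) among genes with a mean log2 CPM of at least 1. Alternatives were DESeq2, RLE and upper-quartile scaling, no filter, a mean of at least 1 CPM, only the groups compared, and leaving out each mouse. The hair list covariate, leaving out mice 136 and 141 together and a fit without the robust option were chosen after seeing the data.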

Additional observations from a re-analysis of the deposited data

How the results depend on the processing

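In WT BLM against WT PBS the fall of Bmp2 and Bmp4 passed in all 12 fits without 1 mouse, while the number of members called ran from 3 to 8 over those fits, with 3 without WT BLM mouse 145 or 147 or WT PBS mouse 160, 4 without WT PBS mouse 159 or 161, and 8 without KO PBS mouse 136 or 137. Of all genes, 13.9% to 21.3% passed in the fits with 3 or 4 members, against 45.7% without mouse 136 and 34.2% without mouse 137. With the hair list as a covariate the number of members was 0, and 12 of all genes passed. Log2 fold changes there were -1.55 for Bmp4, -1.28 for Fgf10 and 0.15 for Fgf22. RLE or upper-quartile scaling, DESeq2, no filter on low counts, a mean of at least 1 CPM and the fit without the robust option kept the number within 1.5 times 7, and Fgf5 passed when only the groups compared entered the fit (adjusted p = 0.00136). Without 1 mouse the number called ran from 0 to 3 in KO BLM against KO PBS (2 without mouse 136, 3 without mouse 141), from 0 to 5 in KO PBS against WT PBS (5 without mouse 136), from 0 to 1 in KO BLM against WT BLM (1, Bambi, without mouse 136) and from 0 to 6 in the difference of the responses (6 without mouse 136). Of all genes, 14% passed without mouse 136 and 6.21% without mouse 141 in KO BLM against KO PBS. Without mouse 136, 36.6%, 6.65% and 39.9% of all genes passed in the remaining comparisons, in the order given. DESeq2 called 2, 0, 1 and 2 members in these 4 comparisons (5.95%, 3.69%, 2.99% and 17.8% of all genes), with no adjusted p for Bambi and Fgf22. Without both mice 136 and 141 the 4 comparisons had 5, 6, 2 and 5 members in edgeR (22.4%, 41%, 4.51% and 38.7%). The hair list covariate gave 2 in KO BLM against KO PBS, where 8.7% of all genes passed. The cause of these shifts was not tested.

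Under the hair list covariate, values were kept only for members called in the main fit, and of those Fgf22 turned sign. In the other fits, values turned sign only in the comparisons that hold a knockout group. In KO BLM against KO PBS, the fits without 1 mouse gave log2 fold changes from -1.4 to 2.09 for Bambi, -3.03 to 2.28 for Fgf5 and -0.59 to 1.67 for Fgf22, and the fit without both mice gave 1.03, 1.24 and 1.28. In KO PBS against WT PBS they ran from -0.01 to 0.3 for Bmp2 (-0.01 without both), -4.5 to 0.39 for Fgf5 and -0.22 to 0.21 for Fgf10. In KO BLM against WT BLM they ran from -0.02 to 0.75 for Bmp2, -0.38 to 0.27 for Bmp6, -0.34 to 0.96 for Fgf10 and -0.46 to 0.41 for Fgf7, with -0.05, -0.41 and -0.38 for Bmp2, Bmp6 and Fgf10 without both, and -0.01 for Bmp6 with a mean of at least 1 CPM. In the difference of the responses they ran from -0.16 to 0.64 for Bmp2, -0.39 to 0.96 for Fgf10 and -0.75 to 0.13 for Fgf7, with -0.04 for Bmp2 and -0.59 for Fgf10 without both. A group that lost a mouse held 2.

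No paired analysis was possible because every mouse has its own number and none is shared between groups. With 3 mice a group, intervals of the FGF members and of Bambi were wide. Nog, Fgf5, Fgf10 and Fgf18 rest on low levels in some groups.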
